A study of Mus musculus with 8 samples.

Results

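To describe the m6A that could still be mapped after Mettl14 was silenced, the m6A-RIP-seq peaks of shMettl14-transduced mouse primary vascular smooth muscle cells (VSMCs) were examined on their own. The map consisted of the intervals of the shMettl14 A list that overlapped an interval of the shMettl14 B list by at least 1 bp, and the reverse. List A gave 5931 such intervals of 9061 and list B 6077 of 7031, together 12008 of the 16092 knockdown intervals and of the 31673 intervals in the 4 peak lists of the series. Merged where they touched, they formed 5866 shared regions with a median length of 355 bp (range, 112 to 3492 bp). The series holds 8 samples, an IP and an input for replicates A and B of shMettl14 and of shCTR. The cells came from the descending aorta of adult C57BL/6J mice, and all cells, shCTR included, were transduced with lentivirus. The shCTR virus carries a hairpin directed at a plant microRNA, and its peak lists were counted but otherwise not used. The 2 replicates are labelled A and B, and no label says whether they came from separate cultures or animals. A hairpin lowers a transcript without removing it, and a peak list measures neither Mettl14 RNA nor the total amount of m6A, so how much methylation was left is not known from these files.

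m6A is written on nascent mRNA by a complex in which Mettl3 is the catalytic subunit and Mettl14 holds the RNA. Wtap, Virma, Zc3h13, Rbm15, Rbm15b and Cbll1 are its accessory subunits. The mark lies in a short consensus called DRACH, that is A, G or T, then A or G, then A and C, then A, C or T, with the methyl group on the A before the C. It is known to be dense in long exons and near stop codons, and sparse next to exon junctions. YTH proteins read the mark and shorten or otherwise alter the life of the transcript. In the artery wall VSMCs can leave the contractile state for a proliferative, matrix-producing one, and transcription factors such as Klf4 take part in that switch.

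The sites nearest the strongest remaining peaks show what the map holds at the level of sequence. Each line gives, from the GENCODE M21 transcript (GRCm38), 21 bases 5′ to 3′ around the DRACH motif closest to the midpoint of the A and B summits, with the motif in capitals and the position of its central A. Gmeb2 to Hivep2 were chosen for the strongest regions, and the last 5 because the results below return to them.
Gmeb2, chromosome 2, A at 181253705, minus strand: gccactacGGACAcaggccac
Usp35, chromosome 7, A at 97312164, minus strand: gtggcagaGGACAgggaagag
Snx33, chromosome 9, A at 56917976, minus strand: ggttagggGGACActtcacgg
Pik3ca, chromosome 3, A at 32462845, plus strand: gggagctgGGACTgcgagctg
Elk4, chromosome 1, A at 132018360, plus strand: aagggttaGAACTgacacccg
Ier5l, chromosome 2, A at 30472742, minus strand: ctggggccAGACAaagactcg
Adgrl2, chromosome 3, A at 148817508, minus strand: gaggcaacAGACAgctacgtc
Bhlhe40, chromosome 6, A at 108664821, plus strand: acggacacAGACAgtggctat
Hivep2, chromosome 10, A at 14149599, plus strand: tacatcacAGACTgcagtagc
Fat1, chromosome 8, A at 45050964, plus strand: ccaccagaGGACTtccctgca
Peak1, chromosome 9, A at 56206527, minus strand: agcctggaGGACTggctttgt
Jund, chromosome 8, A at 70700162, plus strand: gtgcccccGGACTcgacaagc
Smad3, chromosome 9, A at 63648777, minus strand: tggtctgtGGACTgctgcttc
Klf4, chromosome 4, A at 55527873, minus strand: aaatcacaGAACAgatggggt

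These are motif matches, not measured single sites, since the RNA was cut to fragments before pulldown. The Gmeb2 match lay 80 nt after the first base of the stop codon, in the 3′ UTR, 6 nt from the summit in A and 3 nt in B. The Pik3ca match lay 16 nt after the first base of the stop codon, whereas the Hivep2 match at -135 nt lay before it, in coding sequence. The Usp35 match was farther away, at -974 nt in coding sequence. In the Fat1 line the summits of both lists lay within 2 nt of the central A, and in the Bhlhe40 line within 9 nt. Over the 100 coding genes with the strongest remaining regions the closest motif was GGACA in 22, GGACT in 17 and AGACT in 10, at a median of 8.5 nt from the midpoint of the summits. As each motif, in the lines above too, was picked for being the closest, short distances come with the choice. DRACH is also common, with 1 within 50 nt of 86.1% of all positions of the transcripts with shared summits. The distance from other positions was not computed.

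The intervals that both lists held were the stronger ones of each list. Strength was taken as the percentile of a summit's fold enrichment (IP over local background, as the authors' peak caller gave it) among all summits of the same list, with 100 for the strongest. Fold enrichments rest on each library's own background and were not set side by side between lists. In list A the median percentile was 58.7 over the 10377 shared summits and 27.6 over the 3298 unshared ones. In list B it was 54.4 over 8293 shared and 20.02 over 963 unshared summits. The pileup, the number of fragments stacked at a summit, had a median of 17 in shared and 8 in unshared summits of A, and of 14 and 6 in B. The share of summits in shared intervals rose from 53.7% in the weakest decile of list A to 98.0% in the strongest, and from 72.4% to 99.8% in list B. Low pileups limit what 1 peak can say, since 20.6% of the shared summits in A and 30.2% in B rested on 10 or fewer fragments.

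The lists ranked the shared regions alike, though far from identically. Over the 5866 regions the Spearman correlation of the A and B percentiles was 0.710. Its points are regions of the same cells, several of them from 1 transcript, and it is given as a description. The strongest summits of A and B lay a median of 18 bp apart, and within 50 bp of each other in 74.1% of regions. The percentiles differed by a median of 12.9 points, by up to 10 points in 41.9% of regions, and by over 50 points in 284 regions (4.84%). The plot of percentiles in A against B shows the cluster of agreement in the upper right corner, where 625 regions were above 90 in both lists. Those 625 were 54.1% of the 1156 regions above 90 in A and 74.5% of the 839 above 90 in B.

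**Figure D1:**
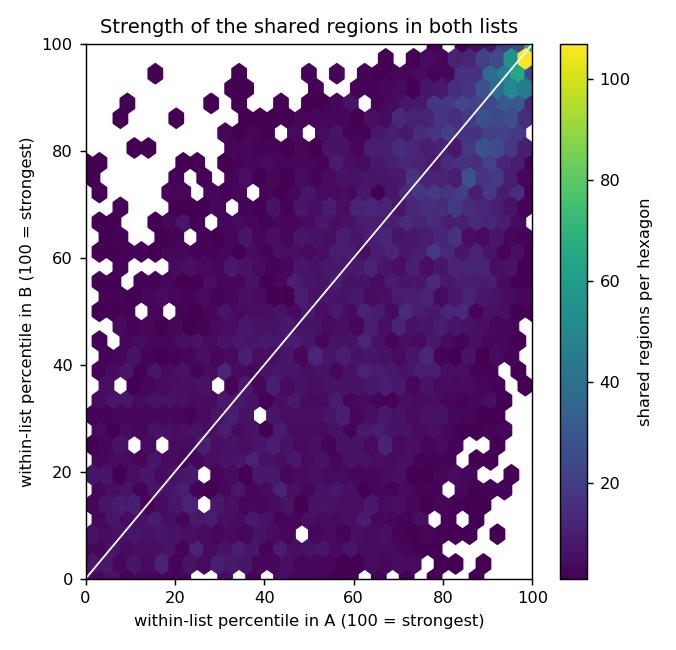
Each of the 5866 shared regions is placed by the within-list percentile of its strongest summit in A (horizontal axis) and B (vertical axis), and the colour counts regions per hexagon. Regions gather in the upper right corner, where 625 were above percentile 90 in both lists, and spread widely around the white line of equal percentiles elsewhere.

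The 5 single-gene regions with the widest gap between lists, chosen for that gap, had pileups of 19 or fewer in both lists. Zfp438 stood at percentile 88.5 in A and 0.859 in B, with pileups of 14 and 3, although its summits lay 1 bp apart. Zfp799 stood at 92.6 and 9.81 with pileups of 18 and 7, and Arl4a, a small GTPase, at 94.4 and 15.2 with pileups of 19 and 5. Hgh1 went the other way, with 9.09 in A and 90.1 in B on pileups of 7 and 17, as did Sec22a, a vesicle transport protein, with 7.09 and 85.2 on pileups of 6 and 17.

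The cell type label was set against marker genes. Of 23 contractile genes of smooth muscle, 5 had a shared region (21.7%), beside 16.5% of all 21951 annotated coding genes. Synpo2, an actin-binding protein of smooth muscle, was at percentile 99.1 in A and 96.5 in B. Lmod1, which nucleates actin filaments, was at 94.3 and 98.3, and Itga8, an integrin subunit, at 95.9 and 89.0. Srf, the factor that drives contractile genes, was at 55.3 and 64.8, while Cald1 (caldesmon) was near the bottom of both lists at 9.24 and 16.3. The low rank of Cald1 is by fold enrichment, and its pileups reached 62 in A and 54 in B. Acta2, Tagln, Cnn1, Tpm1, Myl9, Mylk, Smtn and Myocd had no summit in either list, and Myh11 had 2 in A and none in B. A gene without a peak may lack m6A or be too little expressed to give one, and these lists cannot tell the cases apart.

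Markers of other cells were also in the map. Of 16 endothelial markers 6 had a shared region (37.5%), and the list held 27 summits in A and 21 in B, beside 21 and 15 for the contractile genes. Mmrn2, a matrix protein of endothelium, was at 91.9 in A and 95.6 in B, Erg, an endothelial transcription factor, at 89.96 and 87.9, and Flt1, a VEGF receptor, at 86.6 and 89.98. Cdh5, the cadherin of endothelial junctions, was at 71.2 and 67.6, Sox17 at 85.7 and 37.4, and Pecam1 at 12.2 and 43.6. Nos3, Tek, Tie1, Vwf, Robo4, Emcn, Cldn5 and Egfl7 had no summit in either list. None of 14 leukocyte markers had a summit in A or B, Ptprc, Cd68 and Adgre1 included. Of 12 fibroblast markers Pdgfra (87.0 and 66.7) and Cd34 (22.1 and 27.5) had a shared region (16.7%, but 8.33% when intervals had to overlap by 50% of both). In bulk RNA, fewer cells of a type and less RNA per cell cannot be told apart, and the part of other cells in the results was not tested. Per the study's methods the adventitia was stripped and the endothelium scraped away before the smooth muscle cells grew out of the tissue, and they were passaged before use.

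The remaining map lay in exons of mRNA. In list A 56.7% of shared summits fell in coding sequence (95% Wilson interval, 55.7% to 57.6%) and 26.4% in the 3′ UTR (25.6% to 27.3%). List B gave 55.7% (54.7% to 56.8%) and 26.5% (25.6% to 27.5%). These intervals, like all below, cover counting error only. The 5′ UTR held 1.86% of summits in A and 1.82% in B, exons of noncoding genes 2.45% and 2.75%, introns 4.21% and 4.52%, and intergenic sequence 2.84% and 3.07%. Another 3.39% and 3.45% were in exons that the chosen transcript of the gene lacks, and 2.16% and 2.15% in exons shared by several coding genes. Every class differed between A and B by less than 1 percentage point.

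Within transcripts the summits gathered around the stop codon. Of the 8815 summits in A that could be placed on 1 transcript, 25.7% lay within 200 nt of it (24.8% to 26.6%), and of the 6971 in B 27.1% (26.1% to 28.2%). Over all positions of the same transcripts the share was 9.60% for A and 9.69% for B. The excess was on both sides of the stop codon, with 12.3% of summits in A and 12.7% in B in the 200 nt before it and 13.4% and 14.4% in the 200 nt from it on. Positions of the same transcripts gave 4.88% and 4.93% before and 4.72% and 4.76% after. The profile around the stop codon has a peak on either side and a dip at the codon itself. In A the bin centred 75 nt upstream held 3.81% of summits, the bin 25 nt upstream 3.12% and the bin 75 nt downstream 3.72%, and in B these bins held 3.63%, 3.11% and 4.07%.

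**Figure D2:**
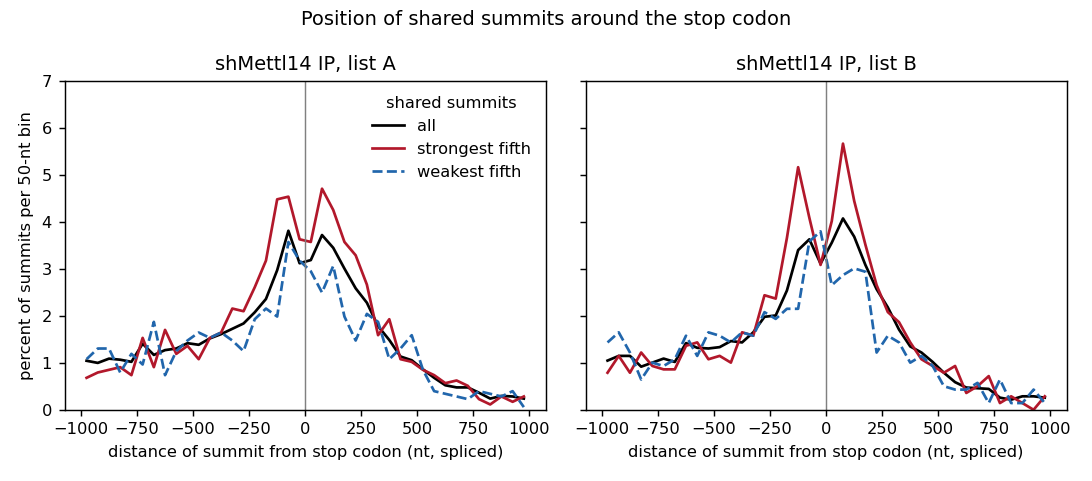
Percent of placed shared summits per 50-nt bin of spliced distance from the first base of the stop codon (grey line), in list A (left) and list B (right), for all summits (black), the strongest quintile (red) and the weakest (blue dashes) by fold enrichment within the list. The strongest quintile reached 4.71% in A and 5.67% in B in the bin centred 75 nt downstream.

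Few summits lay near exon junctions. Of summits in spliced transcripts 4.65% in A (4.22% to 5.13%) and 3.33% in B (2.92% to 3.78%) lay within 100 nt of a junction, against 29.3% and 29.5% of positions in the same transcripts. Of coding summits in internal exons 96.2% in A and 95.8% in B were in exons longer than 400 nt, which made up 38.4% and 38.9% of internal coding sequence. This background counts each transcript once, by length, whereas the other shares of positions count a transcript once per summit. The contrast for long exons is therefore not on the same footing as the others. The last exon held 64.4% of summits in A and 64.5% in B, beside 55.3% and 55.2% of positions. Among coding summits alone the last exon held 49.5% and 49.2%, beside 35.8% and 35.6% of coding positions. Among 5′ UTR, coding sequence and 3′ UTR, the 5′ UTR was the poorest relative to positions, with 2.19% of placed summits in A and 2.17% in B against 7.03% and 7.06% of positions.

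Stronger summits lay closer to stop codons and more often next to GGACT. From the weakest to the strongest quintile of fold enrichment the share within 200 nt of the stop codon rose from 21.4% (19.5% to 23.4%) to 32.05% (29.9% to 34.3%) in A and from 23.2% (21.02% to 25.4%) to 33.7% (31.3% to 36.2%) in B. The share with GGACT within 50 nt rose from 14.4% (12.8% to 16.1%) to 26.1% (24.1% to 28.2%) in A and from 16.3% (14.5% to 18.4%) to 28.2% (25.9% to 30.6%) in B. The 3′ UTR share rose from 26.1% to 34.4% in A and from 26.1% to 33.7% in B, and the coding share fell from 71.2% to 63.8% and from 71.1% to 64.3%. The median pileup rose along with these, from 12 to 28 fragments in A and from 9 to 29 in B, and the median background went from 1.80 to 0.902 fragments in A and from 0.868 to 0.747 in B. Their part in the trend was not tested. When summits were ranked by pileup, the mean gap over both lists between the strongest and weakest quintile was 3.98 percentage points for the stop codon and 6.51 for GGACT, against 10.6 and 11.8 by fold enrichment. Taking the interval's midpoint for the summit gave 5.67 and 6.61.

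**Figure D3:**
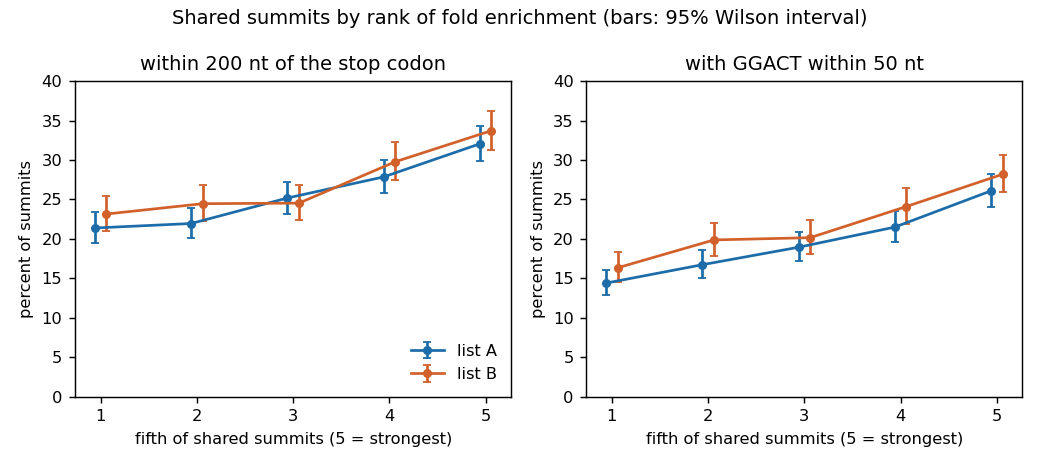
Share of placed shared summits within 200 nt of the stop codon (left) and with GGACT within 50 nt (right) in each quintile of fold enrichment within list A (blue) and list B (orange), with 95% Wilson intervals that cover counting error. Both shares were highest in the strongest quintile of both lists, 32.05% and 33.7% for the stop codon and 26.1% and 28.2% for GGACT.

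Motifs were counted on the transcript strand. A DRACH motif lay within 50 nt of 94.6% of summits in A (94.2% to 95.1%) and 95.9% in B (95.4% to 96.3%), and 86.1% of positions in the same transcripts also had one, so that nearly any window holds the consensus. The individual members of the consensus differed more. GGACT was near 19.5% of summits in A and 21.7% in B, against 10.6% of positions for either list, 1.85 and 2.05 times the share of positions. GGACA was near 23.6% and 25.4% (1.74 and 1.88 times), AGACT near 18.7% and 20.2% (1.67 and 1.79 times) and GAACT near 16.9% and 18.5% (1.63 and 1.79 times). TAACA was the least frequent relative to positions, near 4.80% and 5.09% of summits (0.824 and 0.878 times). The GGACT profile was broad and uneven. In the 10-nt bins centred from 95 nt upstream to 45 nt downstream of the summit GGACT occurred 2.02 to 2.58 times per 100 summits and bin in A and 1.89 to 2.91 times in B, with the highest bin 55 nt upstream in A and 25 nt upstream in B. In the bins over 100 nt upstream it occurred 1.68 to 2.16 times in A and 1.84 to 2.11 times in B, and in those over 100 nt downstream 1.19 to 1.30 and 1.19 to 1.45 times.

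The map covered 3772 genes with a shared region in an exon, 3630 of them coding, which is 16.5% of the 21951 coding genes annotated. Most coding genes had little of it, as 2668 (73.5%) held 1 shared region, 921 held 2 to 4, and 41 held 5 or more (25 with a reciprocal overlap of 50%, and 24 with equal numbers of top summits per list). Genes with a shared region had a median exonic length of 5761 nt, those with 5 or more 12351 nt, and all coding genes 3498 nt. Across the 3630 genes the number of regions and the exonic length had a Spearman correlation of 0.276, given as a description over genes that are not independent. Of the 3630 genes, 555 (15.3%) had a region above percentile 90 in both lists.

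The genes with the most remaining regions included those of giant cytoskeletal, adhesion and chromatin proteins. Fat1, Macf1 and Ahnak each had 11 shared regions, Dst had 10, Ahnak2 and Fat4 had 9, and Mki67 had 8. Spen, Kmt2d, Bod1l and Peak1 followed with 7, Zfhx3, Zfp462, Map1a, Plec, Kmt2a, Heg1 and Map1b with 6, and Nsd1 and Son with 5. As 23 genes tied at 5 regions, the last 2 places were given by strength. These 20 genes held 149 regions, of which 124 were in coding sequence, 10 in the 3′ UTR and 0 in the 5′ UTR. The rest, in Macf1, Dst and Ahnak2, lay in exons outside the chosen transcript, whose length was not taken. Of the regions in chosen transcripts 131 were in exons longer than 400 nt. The only others were regions of Spen and Heg1 in exons of 321 to 354 nt.

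Fat1 is a giant atypical cadherin, and its 11 regions lay in 6 coding exons of 463 to 4068 nt. Its strongest region (chromosome 8, 45050746 to 45051632) was at percentile 97.9 in A and 99.3 in B with pileups of 104 and 96. The other regions of Fat1 lay between 5.55 and 65.5 in A and between 3.25 and 89.6 in B. The strongest was the only region of its 629-nt exon. Regions of unlike rank shared the 4068-nt exon, from 5.55 to 55.3 in A and from 13.2 to 89.6 in B. Fat4, a related cadherin, had 9 coding regions, and its strongest was at 94.0 in A and 98.4 in B. Its weakest stood at 34.2 and 31.0, higher than the weak regions of Fat1.

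Ahnak, a giant scaffold protein of the cell cortex, carried all 11 regions in 1 coding exon of 17498 nt. Their percentiles ran from 2.65 to 77.6 in A and from 4.42 to 93.4 in B, with pileups of 32 to 122 in A and 30 to 136 in B. Its strongest region (chromosome 19, 9016241 to 9018185) had the highest pileups of the named genes, 122 in A and 136 in B. It was only at percentile 77.6 in A, and the local background there was 10.7 fragments in A and 7.03 in B. Ahnak2, a related protein, was stronger by rank, at 99.01 in A and 96.2 in B.

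Macf1 and Dst are spectraplakins that link actin with microtubules and intermediate filaments. The 11 regions of Macf1 ranged from 3.72 to 82.7 in A and from 3.93 to 90.9 in B, and 4 of them were in exons outside its chosen transcript. Dst had 4 such regions among 10, and its strongest (chromosome 1, 34237608 to 34237975) was at 95.02 in A and 87.2 in B. Plec, the cytolinker plectin, held 6 regions led by 1 of 3061 bp at 77.2 and 78.0. The microtubule proteins Map1a (84.7 and 88.8) and Map1b (65.3 and 65.0) each had 6.

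Mki67, the proliferation marker of dividing nuclei, had 7 of its 8 regions in its 6836-nt exon, and its percentiles ran from 5.44 to 68.0 in A and from 12.4 to 83.7 in B, none above 90 in either list. Kmt2d (88.3 and 88.6) and Kmt2a (63.5 and 81.5) are histone H3 lysine methyltransferases, with 7 and 6 regions. Spen, a transcriptional repressor, combined number and rank, since its strongest region was at 98.8 in A and 99.2 in B. Nsd1, another histone methyltransferase, was at 99.2 and 98.8 and had 3 of its 5 regions above percentile 87 in both lists. Son, a nuclear speckle protein, was at 99.8 and 97.1 in its long exon, where its other regions lay between 10.2 and 76.2 in A and between 14.1 and 60.0 in B. Zfhx3 (98.3 and 93.8) and Zfp462 (94.7 and 91.4) are large zinc finger factors whose strongest region was in the 3′ UTR, 88 and 32 nt after the stop codon's first base in A. Bod1l, a protein of replication fork protection, was at 84.1 and 80.0, Peak1, a pseudokinase of focal adhesions, at 72.0 and 87.1, and Heg1, a mucin-like receptor, at 51.8 and 80.2.

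**Figure D4:**
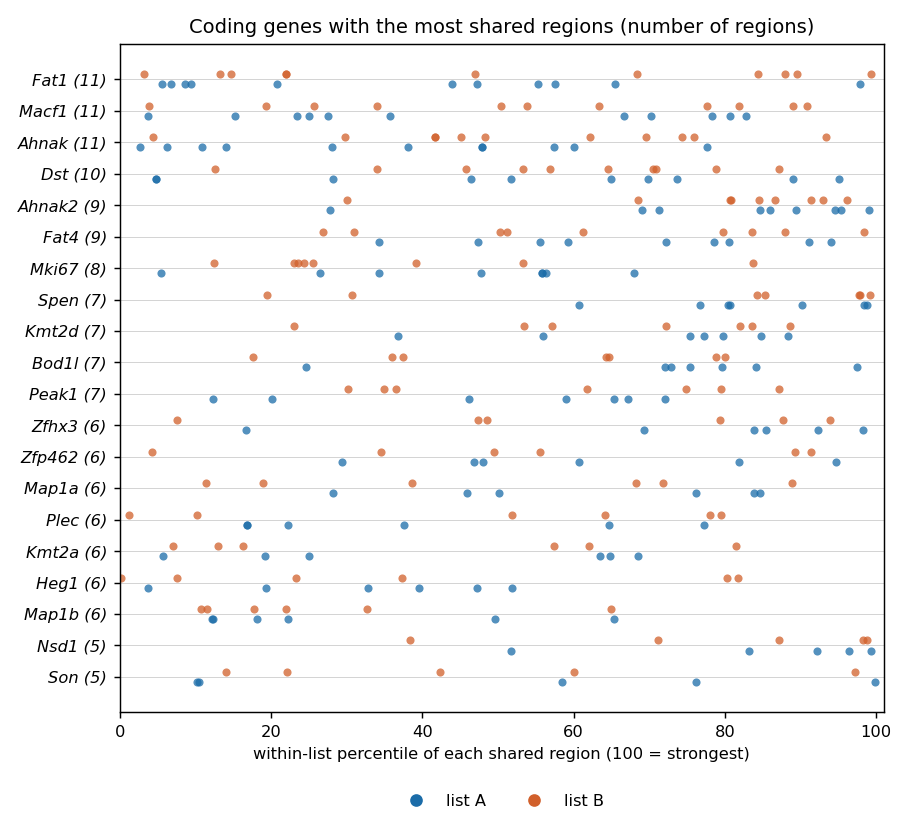
Within-list percentile of every shared region of the 20 coding genes with the most shared regions, in list A (blue) and list B (orange), with the number of regions in parentheses. The regions of 1 gene spread over most of the scale, as in Fat1 (5.55 to 97.9 in A), whereas all 5 regions of Nsd1 were above 51 in A and above 38 in B.

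By fold enrichment the strongest remaining peaks were in other genes. None of the 20 coding genes with the highest mean percentile was among the 20 with the most regions, and 14 of them had 1 shared region. Their mean percentiles ran from 99.67 to 99.97, and the gene next in order was at 99.65, so the border of the list is not a gap. Pileups in these regions were between 37 and 88 fragments over a background of at most 2.10. The strongest region was in coding sequence in 10 and in the 3′ UTR in 9, and within 200 nt of the stop codon in both lists in 9.

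Gmeb2, a DNA-binding factor that modulates glucocorticoid responses, led list A at percentile 100 and stood at 99.95 in B, with pileups of 61 and 45. Its region (chromosome 2, 181253470 to 181254139, minus strand) is in the 3′ UTR, and its summits lay 86 nt after the stop codon's first base in A and 77 nt in B. Usp35, a deubiquitinase, led list B at percentile 100 and stood at 99.93 in A, with the highest pileups of the set, 84 and 88. Its region (chromosome 7, 97312022 to 97312345) is in coding sequence.

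Several of the other leading genes act in signalling. Pik3ca, the catalytic subunit of PI3-kinase alpha, was at 99.87 in A and 99.99 in B, 33 and 25 nt after the stop codon's first base. Elk4, a ternary complex factor that works with Srf, was at 99.92 in both lists. Snx33, a sorting nexin, was at 99.91 and 99.96 and had 2 more regions in its 5′ UTR. Adgrl2, an adhesion G protein-coupled receptor, was at 99.97 and 99.77, and its other region was also strong, at a mean of 97.5. Rgs16, which shortens G protein signals, was at 99.89 and 99.59, and Camk2g, a calcium/calmodulin-dependent kinase, at 99.86 and 99.50. Flrt2 (99.63 and 99.76) and Sema4c (99.93 and 99.41) are cell-surface guidance molecules.

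Of the transcription and chromatin genes, Bhlhe40, a clock-linked repressor, was at 99.77 in A and 99.97 in B on pileups of 79 and 80. Ier5l, an immediate early gene, was at 99.85 and 99.94, and Hivep2, a large zinc finger factor, at 99.95 and 99.75 with 4 regions in all. Zfp703 (99.77 and 99.89) and Zfp282 (99.90 and 99.55) are zinc finger repressors, and Elmsan1 (99.80 and 99.72) belongs to a deacetylase complex. Herc2, a giant ubiquitin ligase, was at 99.71 and 99.90, Ctif, a translation factor of newly exported mRNA, at 99.98 and 99.64, and Urgcp at 99.82 and 99.81. All 20 were above percentile 99.4 in both lists.

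This order belongs to the fold enrichment. When regions were ranked by −log10 p, 10 of the 20 kept a place, and by pileup 2 did, Usp35 and Bhlhe40. Of the 20 genes with the most regions, Fat1 and Ahnak were then among the leading 20 by −log10 p, and Ahnak, Fat1, Plec and Heg1 by pileup, in place of 0 by fold enrichment. By pileup the leading genes were Ahnak, Fam43a, Csf1, Fat1 and Igf1r. Csf1 is the macrophage growth factor and Igf1r the receptor of insulin-like growth factor.

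Some shorter genes carried 3 or more regions in little sequence. Cd248, a surface glycoprotein of perivascular cells and fibroblasts, had 3 regions in an exonic length of 2605 nt, the strongest at 94.7 in A and 96.5 in B. Klf4 had 3 in 3049 nt, with 1 each in the 5′ UTR, the coding sequence and the 3′ UTR. Smad7, the inhibitory Smad, had 4 in 4521 nt, the strongest at 98.0 and 99.3. Vasn, a TGF-beta-binding membrane protein, had 3 in 3007 nt, with lower values of 60.2 and 39.3.

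The longest region was in Plin4, a coat protein of lipid droplets, and spanned 3492 bp (chromosome 17, 56103817 to 56107308) with 17 summits in A and 15 in B. It was at 99.8 in A and 97.5 in B. Its summits fell in coding sequence and intron. The next longest were in Plec, in Fat1 (2747 bp, 57.6 and 87.9), in Arid5b, a chromatin factor (2723 bp, 75.2 and 87.2), and in Akap12, an anchor of protein kinase A (2674 bp, 54.3 and 79.2). By contrast, 3067 of the 5866 regions (52.3%) had 1 summit in each list, and 448 (7.64%) had at least 3 in both.

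Gene groups were then read against all coding genes, of which 16.5% had a shared region and 15.3% of those a region above percentile 90 in both lists. The median of the strongest region per gene was 76.8 in A and 68.2 in B over the 3630 genes. Groups differ in exonic length and in expression, expression was not measured here, and the counts are descriptions with no test.

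Immediate early genes, most but not all of them transcription factors, were widely marked, more than any other group outside the genes the study names. Of 27 immediate early genes 23 had a shared region (85.2%), 7 of them above percentile 90 in both lists, with a median of 82.5 in A and 84.1 in B. Their median exonic length, 3189 nt, was below that of all coding genes. Ier5l led, followed by Btg1, an antiproliferative protein (99.4 and 99.6), Jun (98.5 and 99.5) and Jund (98.7 and 97.8), which are AP-1 subunits. Egr1, an early zinc finger factor, was at 97.6 and 98.4. At the low end were Btg2 (13.4 and 17.9) and Mafk (0.856 and 20.5). Of 21 Krüppel-like and Sp factors 9 had a region (42.9%), led by Klf13 (98.99 and 99.4), Klf9 (89.9 and 87.2), Klf2 (83.9 and 92.3) and Klf7 (92.1 and 80.3). Klf4, at 82.7 and 71.3, was below the medians of these 9 genes, 84.4 in A and 83.1 in B.

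Families that hold inhibitors of ERK and cytokine signals were marked as well. Of 38 dual-specificity phosphatases, Sprouty, Spred and Socs genes, 21 had a region (55.3%), 6 of them above 90 in both lists. Dusp3 (96.0 and 99.3), Dusp16 (96.7 and 97.4), Socs6 (93.2 and 99.1) and Socs5 (97.9 and 90.7) led. Dusp1 was at 75.5 and 52.7. Of 63 forkhead and Sox factors 21 had a region (33.3%), with a median of 86.6 in A and 81.2 in B. Sox9 was at 98.9 and 99.1, Foxc1 at 99.6 and 97.7 in its 5′ UTR, and Foxo3 at 99.9 and 96.3. Sox4 had 3 regions, the strongest at 97.0 and 90.8.

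Chromatin regulators held 123 regions in 62 of 114 genes (54.4%), 17 of them above 90 in both lists, with a median exonic length of 8423.5 nt for the group. Beside Nsd1 and the Kmt2 genes, Hdac4, a histone deacetylase, was at 99.3 and 98.7 and Jmjd1c, a demethylase-like protein, at 99.2 and 98.5. Numbered zinc finger genes gave 180 of 386 (46.6%), 27 of them above 90 in both lists, but their median was close to that of all genes, 74.4 in A and 67.0 in B. Zfp503 (99.5 and 99.3) and Zfp827 (99.3 and 99.1) were the next after the 2 named above. Many of these genes are near-copies of each other, and only uniquely mapped reads were kept, so peaks in their shared stretches may be missed.

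The Hippo pathway, which restrains growth through Yap1, had a high median, 91.0 in A and 91.2 in B over 12 of 22 genes (54.5%) with 38 regions. Fat1 and Fat4 supplied 20 of those regions. Of the core kinases Lats2 was at 95.03 and 94.2 and Lats1 at 89.3 and 89.6, the scaffolds Amotl2 and Amotl1 at 93.0 and 95.01 and at 92.7 and 92.9, and Sav1 at 87.4 and 95.3. Yap1 itself was at 93.9 and 86.0 with 1 region in the 3′ UTR. Tead1, its DNA-binding partner, was lower, at 45.7 and 45.0.

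Of the TGF-beta and BMP pathway 24 of 49 genes (49.0%) had a region. Among ligands, Tgfb2 was at 95.7 and 96.0 and Bmp4 at 92.9 and 91.1. Acvr2a, an activin receptor, was the highest of the group at 99.2 and 99.7, and Smad3, a signal transducer, stood at 98.5 and 89.7 with 2 regions. The Notch pathway gave 10 of 18 genes (55.6%), led by the ligand Jag1 (96.9 and 96.1) and the coactivator Maml2 (98.6 and 88.5). Notch2 was at 86.2 and 87.3, and the target Hes1 near the bottom at 26.7 and 4.02. Of 54 Wnt genes 16 had a region (29.6%). Its receptors Fzd5 (98.3 and 98.3), Fzd7 (96.5 and 87.8) and Fzd4 (87.9 and 94.7) ranked high, while Ctnnb1, the beta-catenin gene, was at 24.7 and 3.22.

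Receptor tyrosine kinases gave 17 of 33 genes (51.5%). Igf1r had 4 regions, the strongest at 97.8 in A and 99.97 in B with pileups of 92 and 102, and Egfr was at 97.6 and 95.5. Insr, the insulin receptor, was at 95.8 and 77.6. Downstream of these, 4 of 6 insulin receptor substrate and FoxO genes had 10 regions together, with Irs2 at 89.0 and 91.3, Irs1 at 95.4 and 73.4, and Foxo1 at 77.5 and 84.6. Of 53 cyclins, CDKs, CDK inhibitors and E2F factors 11 had a region (20.8%), near the 16.5% of all coding genes. Cdk13, a kinase of RNA polymerase II, was at 97.7 and 99.2 with 4 regions, and Cdkn2b, a CDK inhibitor, at 93.2 and 82.8.

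Matrix glycoproteins and collagens ranked low by fold enrichment. Of 42 matrix glycoprotein, proteoglycan and elastic fibre genes 20 had a region (47.6%), with medians of 68.4 in A and 59.6 in B, and 1 was above 90 in both lists. That was Emilin1, an elastic fibre protein, at 92.2 and 98.0. Fbn1 (fibrillin) was at 73.5 and 89.6, Tnc (tenascin C) at 77.7 and 81.7, and Lox, which crosslinks collagen, at 12.5 and 7.63. The median over genes of the percentile averaged over both lists was 63.2 by fold enrichment, 78.7 when regions were ranked by −log10 p and 93.6 by pileup. Collagens gave 12 of 44 (27.3%), with medians of 60.3 and 40.2 and 0 above 90 in both lists, and their median of the averaged percentile was 48.1 by fold enrichment, 63.1 by −log10 p and 77.6 by pileup. Col8a1 was the highest at 86.8 and 96.8, Col6a3 had 3 regions, and Col1a1 stood at 1.18 and 4.59 on pileups of 37 and 31 over a local background of 9.47 and 6.30 fragments. Of 55 matrix proteases and inhibitors 10 had a region (18.2%), with medians of 79.5 and 66.8, led by Adamts5 (96.6 and 96.8) and Adamts1 (81.6 and 97.1). Of 42 integrins and laminins 10 had one (23.8%), with medians of 82.3 and 82.9, led by Itga4 (99.2 and 99.1), and Itgb1, the common beta subunit, was at 0.190 and 3.21.

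Giant cytoskeletal genes held 66 regions in 15 of 23 (65.2%), with a median exonic length of 13362 nt. Apart from those named above, the intermediate filament protein Synm was at 94.4 and 89.5. Of 78 protocadherin, Fat, Dachsous and Celsr genes 29 had a region (37.2%), and their median averaged percentile was 66.5 by fold enrichment and 43.2 by pileup. Several of these are gamma protocadherins, which share their last exons and whose peaks there cannot be given to 1 gene.

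The housekeeping groups stood at the other end. None of 82 cytosolic ribosomal protein genes had a shared region. Of 84 respiratory chain genes 2 had one (2.38%), Cox7a2l (18.7 and 52.5) and Ndufs4 (71.0 and 20.02). Of 39 proteasome genes 2 had one (5.13%, but 2.56% with −log10 q of at least 5), Psmd7 (52.6 and 42.5) and Psmd5 (12.01 and 79.9), with a median averaged percentile of 46.8 by fold enrichment and 77.4 by pileup. These genes are short, with median exonic lengths of 1754.5, 1578 and 2820 nt, and their length and the number of peaks were not separated. The plot of gene groups sets the share of genes with a region, from 0% to 88.9%, beside the median rank.

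**Figure D5:**
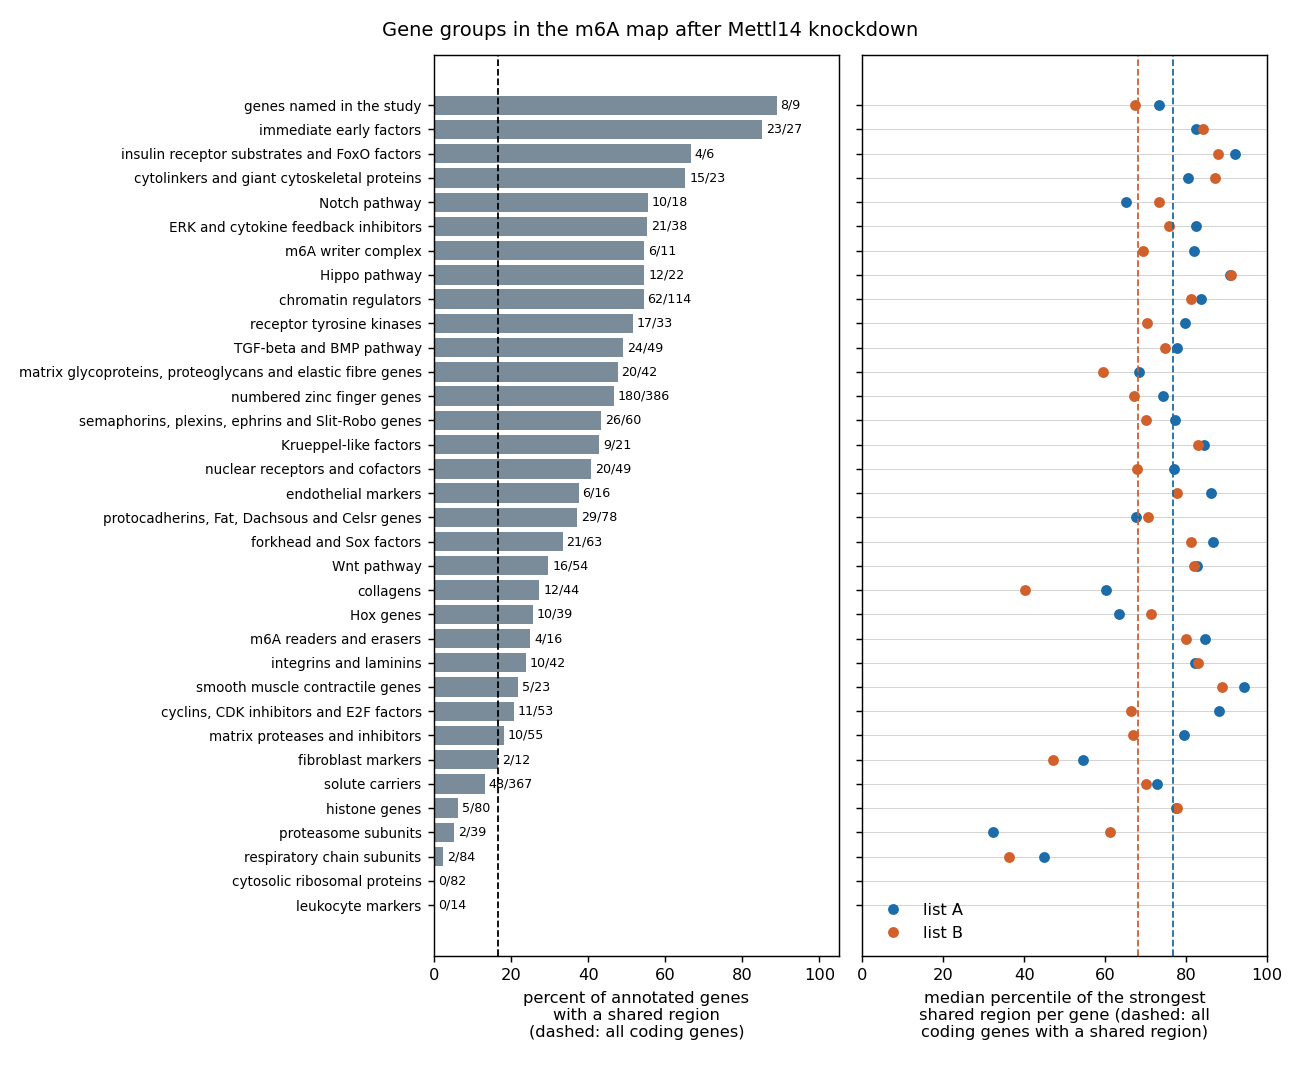
Left, percent of the annotated genes of each group with a shared region (numbers give genes with a region over genes annotated), and the dashed line marks the 16.5% of all coding genes. Right, median within-list percentile of the strongest shared region of those genes in list A (blue) and list B (orange), with dashed lines at 76.8 and 68.2 for all coding genes with a shared region. Immediate early factors (23 of 27) stand high on the left and ribosomal proteins (0 of 82) at the bottom, and collagens lie low on the right, where the ranks are by fold enrichment (a median averaged percentile of 48.1, against 77.6 by pileup).

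The machinery of m6A itself was partly marked. Of 11 writer genes 6 had a shared region (54.5%) with 15 regions. Rbm15 (96.3 in A and 92.8 in B), Rbm15b (92.9 and 85.4), Zc3h13 (70.8 and 92.4) and Virma (91.6 and 37.2) had 3 each, and Cbll1 (72.5 and 53.6) and Wtap (42.1 and 34.6) had fewer. Mettl3, Mettl14, Mettl16, Mettl5 and Zcchc4 had none. Of 16 readers and erasers 4 had a region (25%), namely Ythdf3 (91.3 and 96.9), Ythdf2 (86.4 and 87.7, 3 regions), Prrc2a (83.0 and 72.3) and Ythdf1 (50.5 and 55.4). The demethylase genes Fto and Alkbh5 had none, and all the strongest regions of both groups were in coding sequence.

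Finally, 9 genes that the study takes up by name were located in the map. They were chosen by the study on these samples, so their values describe only where they stand. Of these, 8 had a shared region, 15 regions in all. Klf4 was at 82.7 and 71.3 with 3 regions, Pdgfrb, the PDGF receptor of mural cells, at 83.2 and 70.5 with 2, and Pdgfra at 87.0 and 66.7. Col5a2 was at 64.0 and 68.1, Col18a1 at 31.3 and 30.6, and Fbln2 at 20.7 and 22.6 with 5 regions. Lpar2 had none.

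Of the 33499 noncoding genes annotated 142 (0.424%) had a shared exonic region. The highest was 2610507I01Rik (chromosome 11, 59199836 to 59202385), at percentile 99.99 in A and 99.85 in B, followed by AI506816 (98.8 and 99.8) and Zswim6 (97.8 and 99.5), which the annotation used lists as a processed transcript. Gm20796, a processed pseudogene, was at 95.3 and 95.7, and its reads may come from its parent gene. The long noncoding RNA 2900097C17Rik was at 99.4 and 91.2.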

How the data were processed

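m6A-RIP-seq of shMettl14 VSMCs was analysed from the deposited peak lists, 1 per IP sample. The authors aligned reads to mm10 (STAR), retained those that mapped uniquely (SAMtools) and ran MACS2 on each IP with the matching input as background, without pooling replicates. Versions and options of these tools are not given in the sources used here. The study names an Ensembl release for mm10 and a sequencing depth per sample, but not the read totals of single libraries. Per summit the deposited lists give a fold enrichment, which is a ratio to local background, and the −log10 of the p-value and q-value. A deposited overlap file gives intervals only. Fragment pileups were recovered from the fold enrichment and the −log10 p-value, and a whole number fitted within 0.001 in 100% of summits of both lists. Summits were placed on GENCODE M21 (GRCm38), on the coding transcript with the longest coding sequence (21511 genes). A region's value is its strongest summit, and a gene's that of its strongest region by the mean of A and B. Genes named are the 20 with the most regions, the 20 strongest, 5 noncoding, the 5 longest and 5 most discordant regions, and leading or defining members of 35 gene lists. Some genes that this rule names are not reported here. A few members with low values were chosen after their values were seen. Members and lists were chosen with earlier results of these data known. No test was run. Alternatives changed the overlap, q threshold, ranking, transcript, summit and windows. Placement and recovery were tested on simulated data. Python 3.11.15, numpy 2.4.6, pandas 2.3.3, scipy 1.17.1, statsmodels 0.14.6 and matplotlib 3.10.9 were used.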

Additional observations from a re-analysis of the deposited data

How the results depend on the processing

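No paired analysis was possible because the results come from no test. The number of shared regions (4792 to 5663 in place of 5866) and of genes with one stayed within 1.5 times under every alternative run, whereas genes with 5 or more regions went from 41 to 25 with a reciprocal overlap of 50% and to 24 with equal numbers of top summits. Of the gene list shares, those of fibroblast markers (16.7% to 8.33% with reciprocal overlap) and proteasome genes (5.13% to 2.56% with −log10 q of at least 5) moved by over 1.5 times, each by 1 gene. Leaving out replicate A or B gave 4136 and 4841 genes. The mean coding share of 56.2% was 55.2% with the longest transcript, 52.9% over all summits, and 52.4% to 53.3% with 1 list left out. The mean 3′ UTR share of 26.4%, whose spread between lists was under 0.1 points, was 27.4% with reciprocal overlap, 27.2% with −log10 q of at least 5, 27.3% with equal numbers, 26.6% through the deposited overlap file and with midpoints, 28.0% with the longest transcript, 25.5% over all summits, and 25.1% to 25.9% with 1 list left out. The stop codon share of 26.4% was 14.2% within 100 nt and 41.5% within 400 nt (25.4% to 27.1% with 1 list left out). DRACH was near 77.1% and 99.7% of summits within 25 and 100 nt (94.4% to 95.7% with 1 list left out), and GGACT near 10.7% and 34.7% (19.05% to 21.5%).

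The stop codon gap between quintiles, 10.6 points, was 9.08 with reciprocal overlap, 11.7 with −log10 q of at least 5, 5.67 with midpoints, 9.47 ranked by −log10 p, 3.98 by pileup, and 9.85 to 9.88 with 1 list left out. The GGACT gap, 11.8 points, was 12.7, 10.8, 6.61, 11.6 and 6.51 in the same order, and 11.6 to 12.5 with 1 list left out. Both gaps kept their direction in all of these. The correlation of A and B was 0.760 by −log10 p, 0.880 by pileup, 0.722 with reciprocal overlap, 0.676 with −log10 q of at least 5 and 0.662 with equal numbers. Of the 20 strongest genes 10 stayed by −log10 p, 2 by pileup and 14 with either list left out, and of the 20 with most regions 14 to 19 stayed in each alternative. Of 132 medians recomputed for gene lists 60 moved by more than the spread between A and B, as did 3 of 70 shares beyond their interval. The low pileups limit single peaks.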

Other observations

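Several groups outside the comparisons above were read in the same way. Of all coding genes 16.5% had a shared region, and 15.3% of those were above percentile 90 in both lists. Of 60 semaphorin, plexin, ephrin and Slit-Robo genes 26 had a shared region (43.3%), 6 of them above percentile 90 in both lists. Sema3a (97.2 in A and 96.8 in B) and Sema3c (98.1 and 95.04) are secreted guidance cues, and Efnb2, an ephrin of arteries, had 3 regions, the strongest at 93.8 and 98.2. Of 49 nuclear receptors and cofactors 20 had one (40.8%), 2 of them above 90 in both lists. They were led by the corepressor Nrip1 (99.8 and 97.2) and the coactivator Ncoa2 (98.2 and 97.2). Of 39 Hox genes 10 had a region (25.6%), 0 of them above 90 in both lists. Hoxa3 was at 88.3 and 96.3 and Hoxb4 at 92.4 and 82.0, while Hoxa7 stood at 97.6 and 43.5.

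Of 367 solute carriers 48 had a region (13.1%, below the 16.5% of all coding genes), 7 of them above 90 in both lists. They were led by Slc25a46 (98.8 and 98.5) and Slc35e1 (96.5 and 98.4). Of 80 histone genes 5 had one (6.25%, also below that share), 0 of them above 90 in both lists. Among them were H2afx (89.4 and 88.3), Hist1h1c (84.6 and 86.2) and H1f0 (77.6 and 77.7). Of 30 listed long noncoding RNAs 6 had one, beside 142 of all 33499 annotated noncoding genes (0.424%). The abundant Malat1 (32.9 and 56.2, pileups of 65 and 120) and Neat1 (30.9 and 38.7, pileups of 47 and 43) were of low to middle rank by fold enrichment. The median over the 6 of the percentile averaged over both lists was 50.3 by fold enrichment and 84.6 by pileup. The deposited overlap file for shMettl14 held 6440 intervals, of which 6433 overlapped a shared region. The 219 shared regions that overlapped none of them had median percentiles of 20.2 in A and 7.32 in B, against 69.3 and 59.4 over all shared regions.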
